A study of Mus musculus with 61 samples.

Results

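The 8 genes described here encode the enzymes that make, interconvert and break down the polyamines in mouse skeletal muscle, with 1 regulator of the first step. They were chosen by gene symbol: Odc1, Azin1, Amd1, Amd2, Srm, Sms, Sat1 and Smox, 8 of the 19462 genes in the deposited count table. Amd1 and Amd2 have near-identical sequences, so their counts were added, which gave 7 features (6 single genes and the sum Amd1+Amd2), and each of the pair is also given on its own. RNA-seq was done on muscle from 8 inbred mouse strains, the founders of the Diversity Outbred population, and all mice were kept on a diet high in fat and sugar (45 percent fat in the labels). The strains are named as in the labels. There were 61 libraries, 7 each from NOD, Cast and PWK and 8 from each of AJ, B6, 129, NZO and WSB. AJ, B6, 129, NOD and NZO are classical laboratory strains, and Cast, PWK and WSB were derived from wild mice. No strain was labelled as a control, and the labels gave no sex, age or chow-fed group. Nothing in them states that each library is a different mouse, so p-values measure the spread between libraries, part of which may be technical. Those for wild-derived against classical strains do not measure the spread between strains.

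Polyamines are small, positively charged molecules that bind RNA and DNA and are needed for growth and for protein synthesis. Ornithine decarboxylase (Odc1) makes putrescine, and S-adenosylmethionine decarboxylase (Amd1) makes the aminopropyl donor that spermidine synthase (Srm) and spermine synthase (Sms) use to extend putrescine to spermidine and then to spermine. Spermidine/spermine N1-acetyltransferase (Sat1) and spermine oxidase (Smox) work in the reverse direction. Several of these genes are known to respond to androgens in muscle.

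Amd1 and Amd2 differ in their gene structure and in the sequence before their start, although the transcripts are almost the same. Amd1 lies on chromosome 10 from 40287458 to 40302188 (GRCm38, minus strand) and has up to 8 exons per transcript. Amd2 lies on the same chromosome from 35708691 to 35711891 (minus strand) and is annotated with 1 exon. Both coding sequences hold 1002 bases and differ at 1 of them, G796C, counted from 1 at the first base of the start codon, with the base of Amd1 first. The longest identical coding run was 795 bases, and the transcripts were 99.6% identical over 3202 bases. The stretches just upstream of both genes, and of Odc1 for comparison, are shown from RefSeq (GRCm38.p6) on the strand of the gene, because they are where the 2 copies part.
Amd1, chr10:40302189-40302438: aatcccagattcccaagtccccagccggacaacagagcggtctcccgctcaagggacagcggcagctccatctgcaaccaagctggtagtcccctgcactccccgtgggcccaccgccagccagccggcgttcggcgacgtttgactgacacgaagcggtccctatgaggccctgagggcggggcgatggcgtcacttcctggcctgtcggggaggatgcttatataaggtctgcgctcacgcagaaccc
Amd2, chr10:35711893-35712141: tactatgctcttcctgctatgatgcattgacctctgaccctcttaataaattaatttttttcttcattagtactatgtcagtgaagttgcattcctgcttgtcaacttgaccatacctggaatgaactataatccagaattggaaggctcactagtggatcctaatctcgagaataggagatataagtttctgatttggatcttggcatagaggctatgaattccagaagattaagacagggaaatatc
Odc1, chr12:17544623-17544793: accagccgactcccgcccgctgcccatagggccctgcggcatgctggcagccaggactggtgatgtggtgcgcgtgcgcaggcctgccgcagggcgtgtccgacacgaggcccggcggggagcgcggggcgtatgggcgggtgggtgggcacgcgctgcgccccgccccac
No alignment was found between the upstream stretches of Amd1 and Amd2 (blastn, E-value limit 0.01). Their GC content was 64.4% for Amd1 and 37.3% for Amd2, against a median of 52.4% over all promoters. A short element bound by the androgen receptor, AGAACA, was searched on both strands and stood in 16.1% of 32851 promoters. The E-box, CACGTG, was searched likewise and stood in 6.0% of them. The TATA box, TATAAA, was searched on the gene's strand and stood in 7.6%. None of the 3 strings was in the stretches printed, which are therefore in lower case throughout. Only exact strings were sought, so near matches such as tatataag in the Amd1 stretch were not counted. The Odc1 stretch holds 171 bases because it was cut at the first annotated exon base. The bases between its end and the gene start at 17544873 were not searched. Among the other members, the upstream stretch of Sat1 held 1 match of the androgen receptor element and 1 of the 2 stretches of Sms held 1 E-box, and no matches overlapped. Smox had no upstream stretch outside annotated exons, and none was available for Srm and Azin1, so these genes were not searched.

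Estimated counts summed to 17057111 to 65153255 per library (median 33744449). All 10 skeletal muscle fibre markers were measured, with summed levels of 116200 to 216900 CPM (counts scaled to a common library total, with TMM-adjusted library sizes). Markers of hepatocytes summed to 30.4 to 8067 CPM, those of lymphocytes to 33.9 to 475 CPM and those of keratinocytes to 1.97 to 460 CPM; calls that changed when the libraries highest in these were left out are named beside their values, and the part of those cells in them was not tested. In bulk muscle, fewer cells of a type and less RNA per cell cannot be told apart. Ddx3y, a Y-linked transcript, was at most 2.77 CPM in 31 libraries and at least 66.8 CPM in the other 30, and every strain had libraries on both sides of this gap. Xist, transcribed from the inactive X chromosome, stood at 141 to 278 CPM in the former and at 0.036 to 30.9 CPM in the latter. The labels give no sex, so no library was given one, and the level of Ddx3y was used as a continuous measure. Of the strain labels, Dysf had a median of 14.1 CPM in AJ, which is known to carry a mutation of this gene, against medians of 73.1 to 139.5 CPM in the other strains. Cast_5 and Cast_6 had the highest Ddx3y (200.3 and 164 CPM, against 91.3 and 95.4 CPM in Cast_7 and Cast_8) and the lowest summed fibroblast markers of all libraries (491 and 364.5 CPM). Cast_1 had the highest summed white adipocyte markers (2419 CPM), and NZO_8 the highest summed macrophage markers (297 CPM, against a median of 117 CPM). Calls that changed without these 4 libraries are given with and without them, an alternative chosen after the data were seen.

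**Figure D1:**
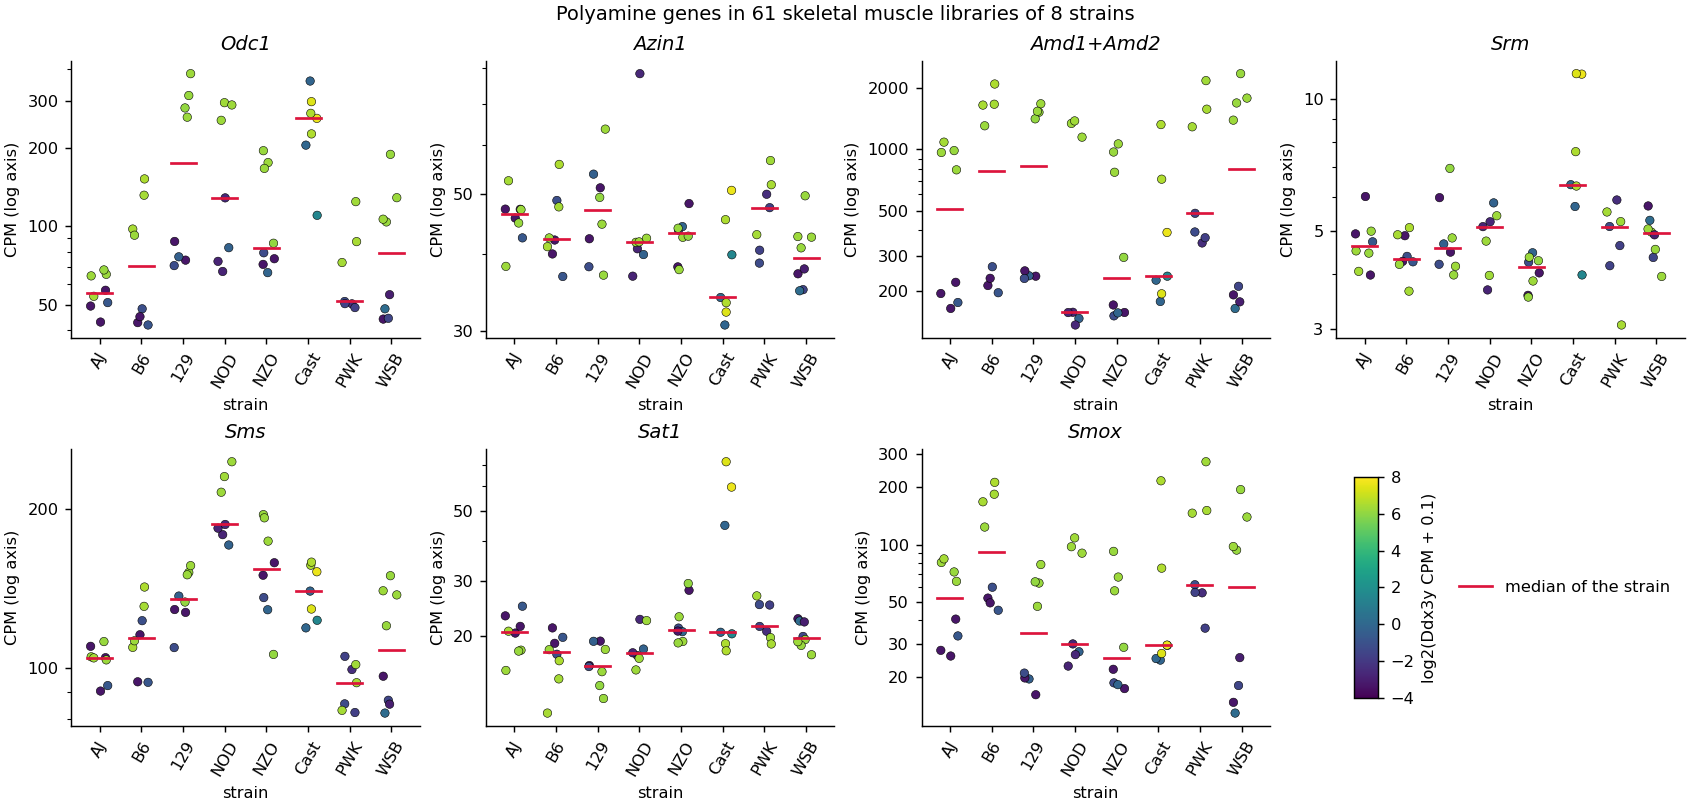
Level of each polyamine gene in CPM (log axis) in each of the 61 libraries, by strain, with red lines at the strain medians and points coloured by the level of Ddx3y. Amd1+Amd2 splits within most strains into a low and a high set of libraries that follow the colour, Sms is highest in NOD, and the high Sat1 values belong to 3 Cast libraries.

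Across all 8 strains, 5 of the 7 features differed: Odc1, Srm, Sms, Sat1 and Smox (edgeR quasi-likelihood F test, Benjamini-Hochberg adjusted p under 0.05). Strain differences were common in this tissue, since 85.5% of the 16683 features tested passed the same test. Azin1 (range of strain means 0.32 log2 units, adjusted p = 0.111) and Amd1+Amd2 (1.095 units, adjusted p = 0.506) did not. The median range over the 7 features was 1.12 log2 units, against 0.91 over all features tested. When each strain was set against the mean of the other 7, 14 of 56 tests passed (25%), 6 higher and 8 lower, where 34.2% of all tests of this kind passed over all features and strains (21.6 to 61.8% by strain).

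Odc1, the rate-limiting decarboxylase of polyamine synthesis (chromosome 12, 17544873 to 17551502), had the widest range of strain means of the 7 features, 2.12 log2 units (adjusted p = 1.17e-06). In Cast its lowest, median and highest library stood at 110.1, 259 and 359 CPM. In 129 they stood at 70.7, 174 and 383 CPM, and in NOD at 67.2, 128 and 297 CPM. These 3 strains held the high values, and the libraries of 129 and NOD were widely spread. In AJ the 3 values were 43.0, 55.5 and 68.1 CPM, in PWK 48.9, 51.6 and 124 CPM, and in B6 41.9, 70.4 and 152 CPM. NZO ran from 66.5 to 194.5 CPM (median 82.6) and WSB from 44.2 to 188 CPM (median 79.3). No AJ library reached the lowest 129 or Cast library, whereas the other strains overlapped.

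Against the mean of the other 7 strains, Odc1 was higher in Cast by 1.29 ± 0.26 log2 units (SE, adjusted p = 2.14e-05) and in 129 by 0.89 ± 0.25 (adjusted p = 0.00591). It was lower in AJ (-1.14 ± 0.30, adjusted p = 0.00221) and in PWK (-0.81 ± 0.31, adjusted p = 0.0317). In NOD it was at 0.68 ± 0.27 (adjusted p = 0.0649), a call that was made without any one of 129_7, NOD_1, NOD_2, NOD_3 and WSB_5 (adjusted p from 0.033 to 0.0478) and without the 4 libraries highest in hepatocyte markers (0.74, adjusted p = 0.0323). Cast_1, with 359 CPM, was the highest Cast library although its Ddx3y was 0.805 CPM. Without Cast_1, Cast_5, Cast_6 and NZO_8, Odc1 was higher in Cast by 0.99 (adjusted p = 0.016). The call in 129 ended without 129_7 (0.67, adjusted p = 0.059), and that in PWK ended without any one of PWK_1, PWK_2, PWK_6 and PWK_7 (-0.72 to -0.74, adjusted p up to 0.0817). The PWK call also ended without the 6 libraries highest in lymphocyte markers (adjusted p = 0.0602) and without the 6 highest in keratinocyte markers (adjusted p = 0.0716). In exact permutation tests of mean log2 CPM between all 28 pairs of strains, adjusted over the 196 tests of the 7 features, 8 pairs differed in Odc1, and each of the 8 involved AJ or Cast. Odc1 has copies of at least 95% identity in the genome, of which AW146154, Gm17709 and Gm7993 are in the count table, and adding their counts changed none of its calls.

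Azin1, the antizyme inhibitor, which frees ornithine decarboxylase from the antizymes that send it for degradation (chromosome 15, 38487430 to 38519266), had the narrowest range of strain means of the 7 features. Its strain medians lay between 34.0 CPM in Cast and 47.5 CPM in PWK. The lowest library, Cast_1, stood at 30.65 CPM and the highest, NOD_4, at 78.3 CPM. Against the other strains it was lower in Cast by 0.23 ± 0.09 log2 units (adjusted p = 0.0281), a call that ended without any one of Cast_1, Cast_2, Cast_6 and Cast_8 (adjusted p up to 0.102). It also ended without Cast_1, Cast_5, Cast_6 and NZO_8 (-0.23, adjusted p = 0.11), without the 4 libraries highest in hepatocyte markers (-0.18, adjusted p = 0.153) and without the 6 highest in keratinocyte markers (adjusted p = 0.0952). The test across strains, not passed with all libraries, was passed without Cast_5 (adjusted p = 0.0324), NOD_4 (0.0219) or PWK_1 (0.0463). An antisense gene, Gm49077, overlaps Azin1 in the annotation, and the use of strand in counting is not given in the sources used here.

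Amd1+Amd2, the summed transcripts of S-adenosylmethionine decarboxylase, was the most abundant feature per length. Over strain means it stood at 219 CPM per kb of exon, followed by Odc1 at 37.55, Sms at 21.9, Smox at 17.7, Sat1 at 7.85, Azin1 at 7.01 and Srm at 3.14. Strain medians of the sum ran from 158 CPM in NOD to 833 CPM in 129, and the libraries of each strain were far apart. These medians depend on how many libraries of a strain lay on each side of the gap in Ddx3y. In NOD 4 of 7 lay below it, and in 129 4 of 8. Strain means ran from 466.5 CPM in Cast to 997 CPM in WSB, with NOD at 638.5 CPM. In WSB the lowest, median and highest libraries were at 165, 802 and 2357 CPM, in B6 at 197, 785.5 and 2096 CPM, and in 129 at 232, 833 and 1676 CPM. In PWK they were at 346, 485 and 2178 CPM, in NOD at 137, 158 and 1380 CPM, and in AJ at 165, 507 and 1085 CPM. Cast ranged from 178.5 to 1324 CPM (median 238) and NZO from 152 to 1064 CPM (median 233). All 8 strains overlapped. None of 28 pairs of strains differed in the exact permutation test, adjusted or unadjusted (0 pairs each at 0.05), and edgeR, DESeq2 and limma on the variance-stabilised values did not call it in any strain.

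The counts were divided between Amd1 and Amd2 in a way that followed the strain closely. Amd2 held a median of 53.3% of the summed counts in PWK (52.7 to 56.4% over 7 libraries), 46.45% in Cast (45.3 to 49.5%) and 24.5% in WSB (20.9 to 26.3%). In the 5 classical strains its median share was 0.37% in B6, 0.46% in AJ, 0.61% in 129, 0.94% in NZO and 1.11% in NOD, and no library exceeded 1.98%. The 3 wild-derived strains therefore did not overlap with the classical strains, nor with each other. As a level, Amd2 stood at 258 CPM in the median PWK library and at 2.12 CPM in the median AJ library. In the fit it differed among strains by 7.68 log2 units (adjusted p = 1.8e-21), and Cast, PWK and WSB together were above the classical strains by 6.35 ± 0.33 log2 units (adjusted p = 4.09e-24), a contrast that 58.7% of all features passed. It was lower in each classical strain against the other 7 (-2.10 in 129 to -3.38 in AJ) and higher in Cast (3.997), WSB (4.21) and PWK (5.40). Amd1 alone was lower in Cast (-1.37 ± 0.60, adjusted p = 0.0439), a call that ended when the counts of further copies were added (-1.12, adjusted p = 0.092) and without any one of Cast_1, Cast_2, Cast_3, Cast_5, Cast_6, NOD_7 and PWK_4 (adjusted p up to 0.0966). Without Cast_1, Cast_5, Cast_6 and NZO_8 it was -0.96 (adjusted p = 0.322), without the 4 libraries highest in hepatocyte markers -0.98 (adjusted p = 0.22), and without the 6 highest in keratinocyte markers it was not called either (adjusted p = 0.0706).

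The copies share almost all of their sequence. Amd-ps3, a further copy that is 99.9% identical to Amd1 over 1005 bases, took a median of 10.3% of the counts of the 3 copies in Cast (9.68 to 11.9%) and 5.72% in PWK (3.95 to 8.16%). In WSB its share was at most 1.28% and in the classical strains at most 0.887%. The counts were made against the GRCm38 build, which is that of B6. How the counter divided reads that fit both copies, and whether the wild-derived strains carry variants that move reads from one to the other, was not tested. The sum of both genes does not depend on that division between them, and it leaves out what was placed on Amd-ps3.

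**Figure D2:**
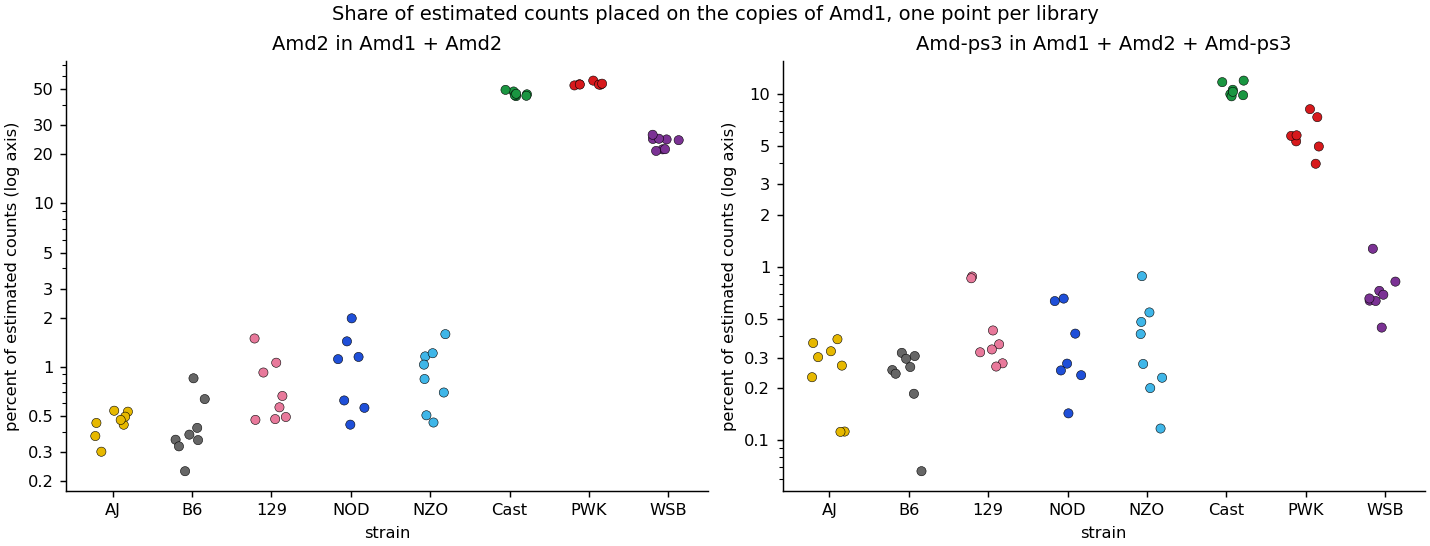
Percent of estimated counts (log axis) placed on Amd2 within Amd1 and Amd2 (left) and on Amd-ps3 within the 3 copies (right), one point per library, by strain. PWK, Cast and WSB sit between 20.9 and 56.4% for Amd2, and the libraries of the other strains sit at or under 1.98%.

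Srm, spermidine synthase (chromosome 4, 148591503 to 148594993), had low levels, with strain medians of 4.14 CPM in NZO to 6.385 CPM in Cast. It was higher in Cast by 0.695 ± 0.10 log2 units against the other 7 strains (adjusted p = 5.93e-08) and lower in NZO by 0.33 ± 0.11 on the log2 scale (adjusted p = 0.0159). Cast_5 and Cast_6 stood at 11.4 CPM each, Cast_7 at 7.59, Cast_2 at 6.385, Cast_8 at 6.34, Cast_1 at 5.70 and Cast_3 at 3.98 CPM. The pair at the top exceeded every other library of the series, whose highest was Cast_7. Without Cast_1, Cast_5, Cast_6 and NZO_8 the difference in Cast was 0.39 (adjusted p = 0.00552).

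Sms, spermine synthase, which lies on the X chromosome from 157443855 to 157492287, was the feature that followed strain most: 70.9% of its variance (log2 CPM) lay between strains. In NOD its lowest, median and highest libraries were at 171, 187 and 245.5 CPM. In NZO they were at 106, 154 and 195 CPM, and in PWK at 82.2, 93.6 and 105 CPM. Every NOD library was above every PWK library, and every NOD library was above the highest of AJ, B6, 129, Cast and WSB (158 CPM). Against the other 7 strains, Sms was higher in NOD (0.75 ± 0.08, adjusted p = 1.52e-10) and NZO (0.31 ± 0.08, adjusted p = 0.00254). It was lower in PWK (-0.53 ± 0.09, adjusted p = 3.46e-06), AJ (-0.37 ± 0.09, adjusted p = 0.000674) and WSB (-0.22 ± 0.09, adjusted p = 0.0339). The WSB call ended without any one of WSB_1, WSB_3, WSB_4 and WSB_9 and without the 6 libraries highest in lymphocyte markers (adjusted p = 0.183), which include WSB_1, WSB_8 and WSB_9. Of 28 pairs of strains, 13 differed in Sms in the exact permutation test. A pseudogene, Sms-ps, matches the Sms transcript over 1101 bases, and adding its counts and those of the other measured copies changed none of these calls.

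Sat1, the acetyltransferase that starts polyamine breakdown (X chromosome, 155213132 to 155216449), was at 11.4 to 29.4 CPM in the 54 libraries outside Cast. In Cast, Cast_6 stood at 71.8 CPM, Cast_5 at 59.6 and Cast_1 at 45.0 CPM, whereas Cast_2, Cast_3, Cast_7 and Cast_8 were at 20.6, 20.3, 18.9 and 17.9 CPM. The strain therefore split into 3 libraries above every other library of the series and 4 within the range of the rest. Over all 7 Cast libraries Sat1 was higher by 0.89 ± 0.13 log2 units (adjusted p = 4.54e-08). Without Cast_1, Cast_5, Cast_6 and NZO_8 the difference was -0.0046 (adjusted p = 0.977), so the Cast call was not made without them. The 3 libraries also had the lowest summed fibroblast markers of the series (538 CPM in Cast_1), and the part of this in the result was not tested. In 129, Sat1 was lower by 0.43 ± 0.14 on the log2 scale (adjusted p = 0.0172), a call that ended without 129_6 (-0.38, adjusted p = 0.0577). Without the 4 libraries named above it was lower in 129 by 0.29 (adjusted p = 0.00355) and was called higher in PWK (0.24, adjusted p = 0.00982, against 0.11 and adjusted p = 0.585 with all libraries).

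Smox, spermine oxidase, which converts spermine back to spermidine (chromosome 2, 131491496 to 131525922), spanned 12.9 to 273 CPM over all libraries. Its strain medians were highest in B6 (91.7 CPM) and PWK (61.4 CPM) and lowest in NZO (25.4 CPM). The strain means of B6 and PWK were close (111.9 and 111.5 CPM). As with Amd1+Amd2, the libraries of a strain were far apart, for example 12.9 to 195 CPM in WSB and 24.6 to 217 CPM in Cast. The test across strains was passed narrowly (range 1.48 log2 units, adjusted p = 0.0409), and the call ended without any one of 129_1 to 129_4, B6_5 to B6_8, NZO_1 to NZO_4, NZO_8, PWK_3, PWK_4 and PWK_9 (adjusted p up to 0.0932). It also ended without the 6 libraries highest in keratinocyte markers (adjusted p = 0.138) without the 4 highest in hepatocyte markers (adjusted p = 0.0762), and without Cast_1, Cast_5, Cast_6 and NZO_8 (1.44, adjusted p = 0.0525). Against the other 7 strains no difference in Smox passed, the nearest being PWK (0.91 ± 0.39, adjusted p = 0.0545) and B6 (0.91 ± 0.37, adjusted p = 0.0591). Both were called without Cast_7 (adjusted p = 0.0183 in PWK and 0.0198 in B6), and without any one of several other libraries. Without the 6 libraries highest in lymphocyte markers both were called as well (1.11, adjusted p = 0.0128 in PWK and 1.08, adjusted p = 0.0174 in B6), and B6 was called without the 4 highest in hepatocyte markers (0.98, adjusted p = 0.0323). Of the 28 pairs of strains, B6 and NZO differed in the exact permutation test (1.504 log2 units, adjusted p = 0.0498).

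**Figure D3:**
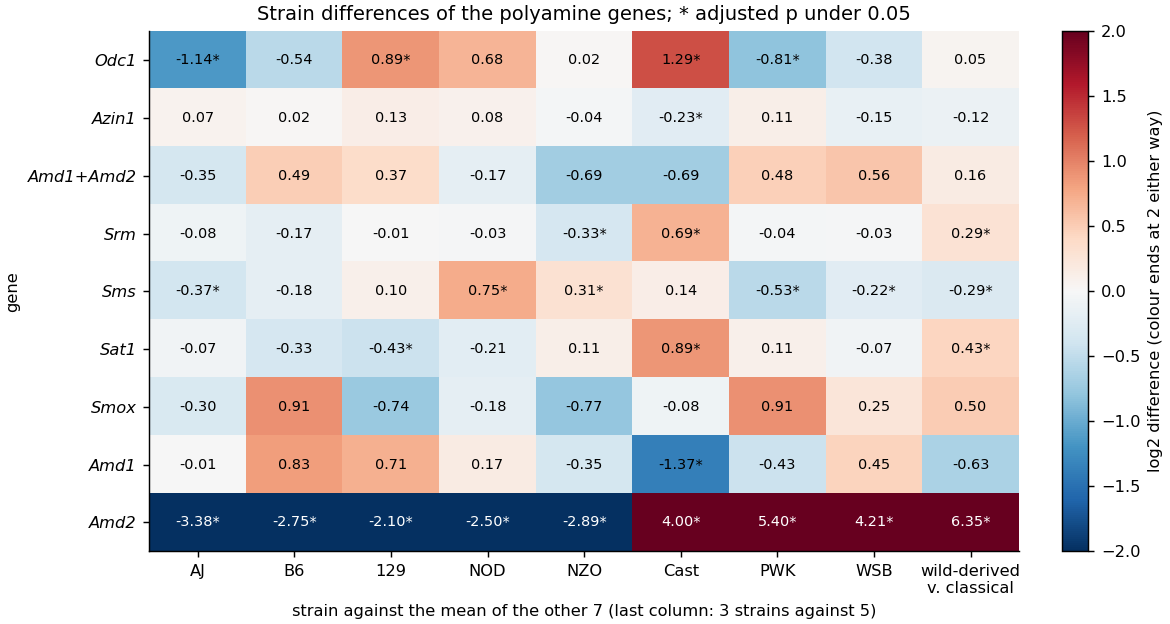
Log2 difference of each gene (rows) between a strain and the mean of the other 7 (columns), with wild-derived against classical strains in the last column; asterisks mark an adjusted p under 0.05. Cast holds 4 calls among the 7 features, B6 none, and Amd2 is the gene called in all 9 columns.

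By strain, the 7 features gave the following counts, each beside the share of all features that passed in the same comparison. Cast had 4 (61.8% of all features passed, 33.8% higher and 27.9% lower), with Odc1, Srm and Sat1 higher and Azin1 lower. AJ (31.7%, with 16.8% higher and 14.9% lower) had Odc1 and Sms lower. In PWK (41%, with 20.6% higher and 20.3% lower) Odc1 and Sms were lower as well. NZO (27.2%, with 14.6% higher and 12.7% lower) had Sms higher and Srm lower. In 129 (25.6%, with 14.2% higher and 11.4% lower) Odc1 was higher and Sat1 lower. NOD (21.6%, with 11.9% higher and 9.78% lower) had Sms higher. WSB (38.3%, with 21.4% higher and 17% lower) had Sms lower. In B6 (26.2%, with 15% higher and 11.2% lower), edgeR called 0 of 7, as did DESeq2 and limma on the variance-stabilised values, while 3 of 7 had an unadjusted p under 0.05. Between the wild-derived and the classical strains (58.7% of all features passed, 32.3% higher and 26.5% lower), 3 of 7 features differed. The wild-derived mean was higher in Srm (0.29 ± 0.07, adjusted p = 0.00056) and Sat1 (0.43 ± 0.09, adjusted p = 8.41e-05) and was lower in Sms (-0.29 ± 0.06, adjusted p = 4.65e-05). None of these was called in all 3 wild-derived strains. Against the other 7 strains, Cast, PWK and WSB stood at 0.695, -0.042 and -0.030 in Srm and at 0.89, 0.11 and -0.074 in Sat1, with only Cast called. In Sms they stood at 0.14, -0.53 and -0.22, with PWK and WSB called. Without Cast_1, Cast_5, Cast_6 and NZO_8, Sat1 was at 0.14 (adjusted p = 0.0336) and Srm at 0.19 (adjusted p = 0.0139) in that contrast. When the strains were ordered by mean level within each feature, 0 of the 49 neighbouring pairs differed in the exact permutation test after adjustment, and 4 had an unadjusted p under 0.05.

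Most of the spread within strains of Amd1+Amd2, Smox and Odc1 moved with Ddx3y. Within strains, Amd1+Amd2 rose by 0.28 ± 0.016 log2 units per log2 unit of Ddx3y (SE, adjusted p = 1.75e-20). Over the span of 11.71 log2 units of Ddx3y across all libraries this is 3.27 ± 0.19 log2 units. That span joins different strains: it ran from 0 CPM, seen outside Cast, to 200.3 CPM in Cast_5, and the lowest Cast library was at 0.805 CPM. At 0 CPM the log2 value is set by the prior count of 2 added before the log, so the span depends on that setting. No single strain covered the span, so the fitted change within a strain is smaller than the value over the span. Smox rose by 0.20 ± 0.017 per unit (2.34 ± 0.20 over the span, adjusted p = 1.69e-13) and Odc1 by 0.13 ± 0.013 (1.48 ± 0.15 over the span, adjusted p = 6.21e-11). Sms rose less, by 0.026 ± 0.0055 per unit (0.30 ± 0.064 over the span, adjusted p = 0.00038). These 4 of 7 features were higher with Ddx3y, where 16.6% of all features passed the test, 8.66% higher and 7.9% lower. Azin1, Srm and Sat1 did not pass (adjusted p = 0.465, 0.926 and 0.429). On the log2 CPM scale, Ddx3y took up, after strain, 76.7% of the variance of Amd1+Amd2, 55.5% of that of Smox, 33.7% of that of Odc1 and 8.3% of that of Sms. Taken on its own, Amd1 had a slope of 0.28 ± 0.016 and Amd2 one of 0.24 ± 0.019 (adjusted p = 5.82e-15). The 4 slopes were also called without each library in turn. With the library number as a block the slope of Sms was not called (0.012, adjusted p = 0.582). In that fit 1.86% of all features passed the slope test, and Amd1+Amd2, Smox and Odc1 were among them.

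**Figure D4:**
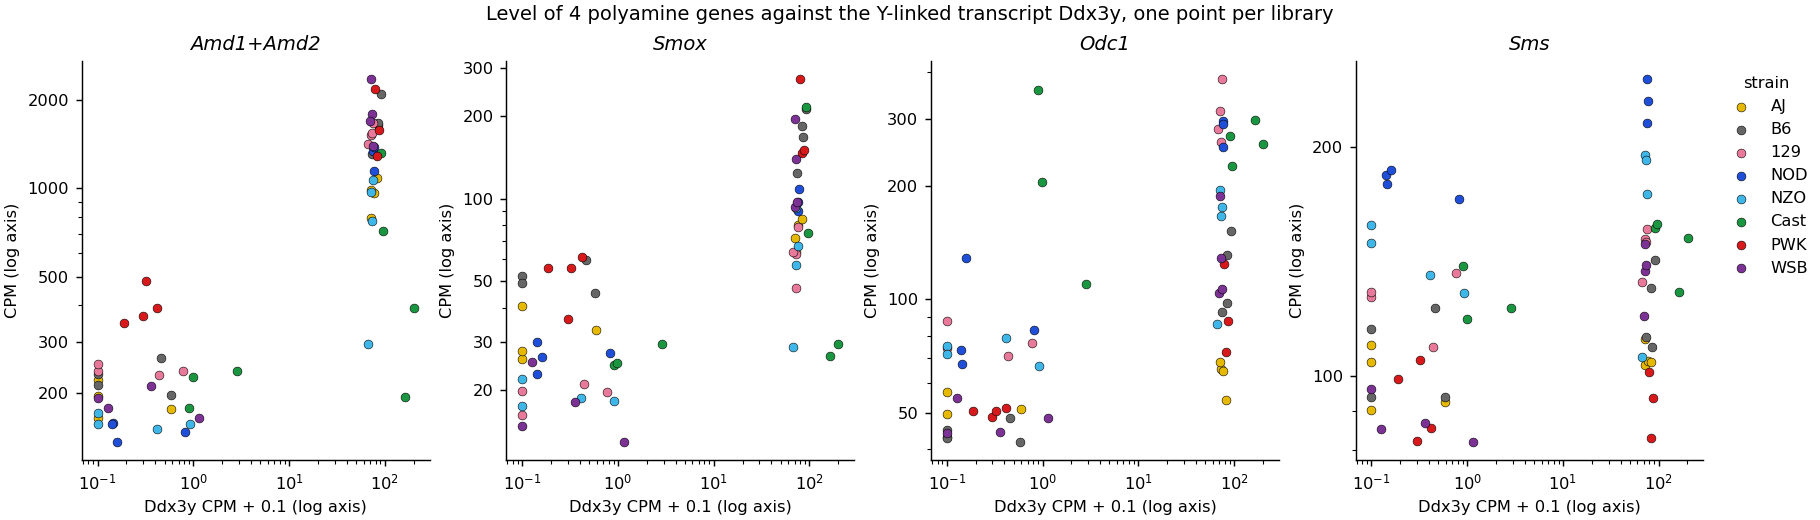
Level of Amd1+Amd2, Smox, Odc1 and Sms in CPM (log axis) against Ddx3y CPM plus 0.1 (log axis), one point per library, coloured by strain. The 31 libraries at or below 2.77 CPM of Ddx3y hold 137 to 485 CPM of Amd1+Amd2, and of the others Cast_5, Cast_6 and NZO_8 also lie in that range.

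The levels on both sides of the gap in Ddx3y can be read library by library. Amd1+Amd2 stood at 137 to 485 CPM in the 31 libraries below the gap and at 195 to 2357 CPM in the 30 above it. Within 7 of the 8 strains every library above the gap was higher than every library below it. In 129, the libraries below the gap were at 232 to 253 CPM and those above at 1413 to 1676 CPM. In WSB they were at 165 to 212 and at 1392 to 2357 CPM, and in NOD at 137 to 158 and at 1148 to 1380 CPM. Cast was the exception, because Cast_6 (195 CPM) lay among the libraries below the gap (178.5 to 238 CPM), and Cast_5 was at 390.2 CPM while Cast_7 reached 1324 CPM. In NZO, NZO_8 stood at 294 CPM, between the 152 to 172 CPM of the libraries below the gap and the 771 to 1064 CPM of NZO_5, NZO_6 and NZO_7. NZO_8 was also the lowest of these 4 in Odc1 (86.1 CPM), Smox (28.7 CPM) and Sms (106 CPM). Smox too was higher in every library above the gap in 7 of 8 strains, and Odc1 in 6, the exceptions being AJ and Cast for Odc1 and Cast for Smox. Sms was so in 2 strains, NOD and WSB, and its slope ran from -0.0016 in PWK to 0.067 in WSB. The Cast exception in Odc1 was Cast_1 (359 CPM): the other Cast libraries below the gap, Cast_2 and Cast_3, were at 204 and 110.1 CPM, and the 4 above it were at 225.5 to 299.5 CPM.

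In the fit with a slope for each strain, Odc1 was the 1 feature of 7 whose slopes differed (F test of the interaction, adjusted p = 0.0217), a test that 2.43% of all features passed. Its slope was 0.21 ± 0.029 in 129, 0.18 ± 0.030 in NOD, 0.16 ± 0.029 in WSB and 0.15 ± 0.028 in B6. It was 0.12 ± 0.028 in NZO and 0.11 ± 0.032 in PWK, and it was 0.034 ± 0.026 in AJ and 0.019 ± 0.039 in Cast. The lowest Ddx3y differed between strains, for example 0 CPM in AJ and 0.805 CPM in Cast. An equal step in Odc1 over a narrower range of Ddx3y gives a steeper slope. The lowest and highest Ddx3y were 0 and 82.7 CPM in AJ and 0 and 75.2 CPM in 129. The part of these ranges in the slopes was not tested. The Cast value rested on Cast_1, since without that library the slope in Cast was 0.0998 ± 0.045, near those of PWK and NZO, while in AJ it was 0.033 ± 0.024. Without each library in turn the interaction was called (adjusted p from 0.00582 to 0.0438). In AJ, Odc1 stood at 43.0 to 56.9 CPM in the 4 libraries below the gap and at 54.0 to 68.1 CPM in the 4 above it, whereas in 129 the same ranges were 70.7 to 87.5 and 261 to 383 CPM. Amd1+Amd2 had slopes of 0.23 ± 0.040 in AJ and 0.23 ± 0.066 in Cast, the low end of its range over the 8 strains of 0.23 to 0.35. With all libraries AJ and Cast were thus the lowest in both features, but the slopes of Amd1+Amd2 were not shown to differ (adjusted p = 0.579). NZO (0.24 ± 0.042) and PWK (0.25 ± 0.048) lay close to them. Without Cast_1, Cast_5, Cast_6 and NZO_8 the slope of Amd1+Amd2 in Cast was 0.35 ± 0.072, level with WSB (0.35 ± 0.035), and in AJ it was 0.23 ± 0.031. The Odc1 interaction was also called without Cast_1, Cast_5, Cast_6 and NZO_8 (adjusted p = 0.0258, slope in Cast 0.087 ± 0.052), but not with Xist in place of Ddx3y (adjusted p = 0.138). Without those 4 libraries the slope of Sat1 was called lower (-0.023 per unit, adjusted p = 0.00065).

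**Figure D5:**
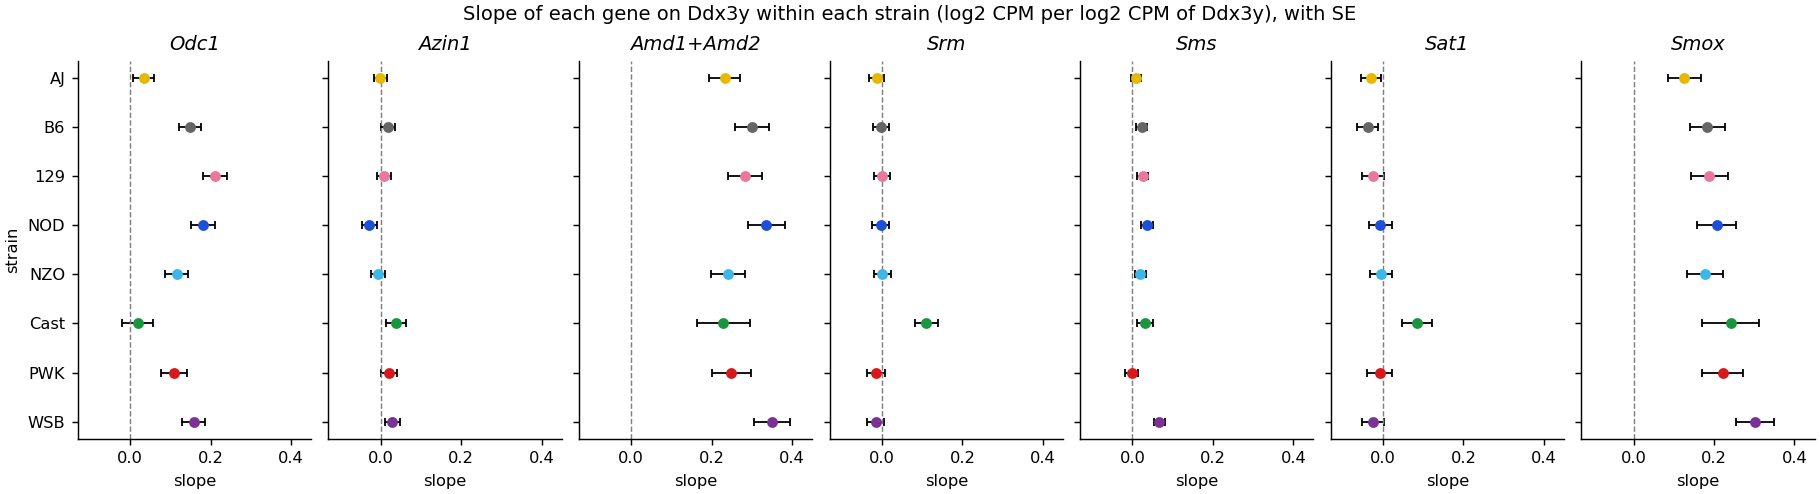
Slope of each feature on Ddx3y within each strain (log2 CPM per log2 CPM of Ddx3y), with bars of 1 SE. Amd1+Amd2 and Smox have slopes above 0 in all 8 strains, and Odc1 lies near 0 in AJ and Cast (0.0998 in Cast without Cast_1) and between 0.11 and 0.21 in the other 6.

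With Ddx3y and Xist as covariates, more strain differences passed the test. Amd1+Amd2 differed among strains (range 1.62 log2 units, adjusted p = 1.38e-05), being higher in PWK (0.85 ± 0.20, adjusted p = 0.000515) and lower in Cast (-1.0 ± 0.23, adjusted p = 0.000161) and NZO (-0.56 ± 0.21, adjusted p = 0.035). Smox was higher in PWK (1.055 ± 0.22, adjusted p = 8.6e-05) and B6 (0.96 ± 0.20, adjusted p = 0.000163), and lower in 129 (-0.72 ± 0.23, adjusted p = 0.0155) and NZO (-0.72 ± 0.23, adjusted p = 0.014). Odc1 was in addition lower in B6 (-0.59 ± 0.18, adjusted p = 0.00825) and higher in NOD (0.62 ± 0.17, adjusted p = 0.00565). In this fit 23 of the 56 tests passed (41.1%), against 14 without the covariates, where 35.5% of all tests passed over all features and strains (24.5 to 60.3% by strain). Without Cast_1, Cast_5, Cast_6 and NZO_8 in addition, Amd1+Amd2 was lower in Cast by 0.65 (adjusted p = 0.0156), and 25 of 56 tests passed (44.6%, against 37.8% over all features and strains). In the libraries below the gap, Amd1+Amd2 was at 346 to 485 CPM in PWK, at 178.5 to 238 CPM in Cast, at 165 to 212 CPM in WSB and at 137 to 265 CPM in the classical strains, so that below the gap Cast lay among the other strains and PWK above them.

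The rest of the pathway was read from a list of 35 genes by role, of which 30 were measured above the low-count filter. Across strains 25 of the 30 passed (83.3%, against 85.5% of all features), with a median range of 0.78 log2 units against 0.91. All 6 genes of methylthioadenosine salvage passed, the route that returns the by-product of the 2 synthases to methionine. So did 7 of 8 transport genes, all 3 tested antizyme and inhibitor genes and both tested catabolic genes. In the other roles 3 of 4 genes of methionine and S-adenosylmethionine supply passed, 3 of 4 hypusine genes and 1 of 3 genes of ornithine supply. The widest ranges belonged to Slc12a8 (2.59 log2 units, adjusted p = 2.36e-05), Mtap, the phosphorylase that opens the salvage route (2.48, adjusted p = 2.73e-32), Got1 (1.81, adjusted p = 2.3e-13) and Slc18b1, a vesicular polyamine transporter (1.79, adjusted p = 1.83e-17). Mtap was lower in NOD (-1.435), NZO (-1.37) and 129 (-1.09) and higher in B6 (0.81), AJ (0.37), Cast (1.402), WSB (0.74) and PWK (0.58), each against the other 7 strains. In Cast 22 of 30 genes passed (73.3%, against 61.8% of all features), 15 higher and 7 lower, with Got1 (1.58 ± 0.13) and Arg1, which makes ornithine (1.52 ± 0.63), the highest. Sat2 (-1.38 ± 0.19) and Mri1 (-0.67 ± 0.07) were the lowest there. Arg1 is also abundant in liver, and summed hepatocyte markers reached 8067 CPM in Cast_3 and 4977 CPM in Cast_1. The part of this in the result was not tested. In 129, 13 genes passed (43.3%, against 25.6% of all features), 7 of them higher. The counts were 12 in PWK (40%, against 41%), 10 in B6 (33.3%, against 26.2%), 10 in WSB (33.3%, against 38.3%), 9 in NZO (30%, against 27.2%), 7 in AJ (23.3%, against 31.7%) and 5 in NOD (16.7%, against 21.6%), of which 6, 5, 4, 4, 2 and 2 were higher. Between wild-derived and classical strains 19 passed (63.3%, against 58.7% of all features), 11 higher and 8 lower, led by Mtap (1.27 ± 0.05) and Slc12a8 (-1.38 ± 0.26). With Ddx3y, 8 of 30 genes passed (26.7%, against 16.6% of all features), 5 higher and 3 lower. Adi1 (0.047 ± 0.0063 per unit, adjusted p = 6.23e-08) and Gpc1 (0.037 ± 0.0059, adjusted p = 4.46e-06) rose most, and Slc7a2, a transporter of arginine and ornithine, fell by 0.050 ± 0.012 per unit (adjusted p = 0.00118).

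The genes whose log2 CPM was most like that of each feature over the 61 libraries were listed as a description among 8884 genes with a mean of at least 5 CPM. Amd1+Amd2 was most like Cdk19 (Pearson r = 0.97), C7 (0.87) and the Y-linked Uty (0.87). Cdk19 lies on chromosome 10 from 40349308 to 40483818 on the plus strand, with 47119 bases between it and Amd1. Smox was most like Cdk19 as well (0.83), followed by Hipk2 (0.80) and Uty (0.74). For Odc1 the 3 genes were Rab12 (0.80), Psmd8 (0.79) and Ubac2 (0.78), and for Sms Six2 (0.76), Atp6v1g1 (0.74) and Metap2 (0.72). Sat1 was most like Atp6ap2 (0.88), Arid5a (0.85) and Tax1bp1 (0.85), a correlation that includes the 3 high Cast libraries. Srm was most like Dhx8 (0.74) and Azin1 most like Hspb8 (0.64). The points share library, strain and depth, and no test was made.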

How the data were processed

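The authors deposited estimated counts per gene, not scaled, for 61 libraries, and the same genes as variance-stabilised values on a log2 scale. Per the submitters' processing notes the build was GRCm38, and DESeq2 is named there with no role. For the aligner, the counter and its handling of strand and shared reads, nothing is given in the sources used here. Of the deposited counts 81.3% were whole (within 1e-06), and they were rounded, since the planned test had assumed whole counts. Totals of 17057111 to 65153255 per library set the precision.

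Counts of Amd1 and Amd2 were summed. Genes were filtered with filterByExpr (16683 features kept, all 8 members among them), scaled by TMM and tested with edgeR 4.0.16 (R 4.3.3; quasi-likelihood F tests, Benjamini-Hochberg adjustment over all features, threshold 0.05, prior count 2). Strain was the factor, with log2 CPM of Ddx3y added for the slopes. Pairs of strains were compared by two-sided exact permutation tests on mean log2 CPM, adjusted over 196 tests. Levels per kb used the union of exons. Alternatives included DESeq2 1.42.0 and limma 3.58.1 on the deposited log2 values. Copies were found with BLAST 2.17.0. The fit was tested on simulated data.

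The members and lists were chosen with earlier results of these data known. All members are named. Of the pathway list, genes past the threshold with the largest difference were eligible, up to 2 per direction, or for all strains the 4 widest ranges. For each feature the 3 genes of highest Pearson r among those of at least 5 CPM were listed. Same-numbered libraries did not deviate together (mean correlation 0.021), so the number was not used as a block.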

Additional observations from a re-analysis of the deposited data

Results flagged for a closer look

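Azin1 in NOD_4 stood at 78.3 CPM (78.27), the highest of the 7 NOD libraries, with the next at 42.4 CPM. Its gap to that library was 0.813 of the range of the strain. This was 1 of 72 groups of libraries examined for a single extreme value, and chance flags about 1 in 20 groups. Without NOD_4 the test of Azin1 across strains was passed (adjusted p = 0.0219).

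The slope of Odc1 on Ddx3y differed among strains (edgeR quasi-likelihood F test of the interaction, adjusted p = 0.0217), with slopes of 0.019 ± 0.039 in Cast and 0.034 ± 0.026 in AJ against 0.21 ± 0.029 in 129. Without Cast_1 the slope in Cast was 0.0998 ± 0.045. The interaction was called without each library in turn (adjusted p up to 0.0438) but not with Xist in place of Ddx3y (adjusted p = 0.138).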

How the results depend on the processing

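Of the values refitted without 1 library, 6513 kept their direction and their side of the threshold, 37 lost a call and 38 gained one. The number of features called ranged from 4 to 6 of 7 across strains, 13 to 17 of 56 for single strains and 3 to 4 between wild-derived and classical strains, and stayed at 4 for the slopes and at 1 for the interaction. Of the values under the other alternatives 1510 kept both, 25 lost a call, 55 gained one and 1 turned. The value that turned was Sat1 in Cast, at -0.0046 without Cast_1, Cast_5, Cast_6 and NZO_8, a set chosen after seeing the data, as were those left out for hepatocyte, lymphocyte and keratinocyte markers. The single-strain count was 23 with Ddx3y and Xist as covariates, 25 with these and without the 4 libraries, and 23 with Amd1 and Amd2 each on its own in place of the sum. With Xist in place of Ddx3y the interaction count was 0, where 0.545% of all features passed, against 2.43% with Ddx3y. The cause was not tested. Leaving out libraries above 10 times the median in hepatocyte or lymphocyte markers was not run, since 0 libraries were. Amd2 did not have 10 counts in every library and has no value under that filter. The interaction was not refitted with DESeq2, and its refits without single libraries were chosen after seeing the data.

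With the library number as a replicate block, the wild-derived against classical count was 5, where 56.4% of all features passed. Amd1+Amd2 was called across strains in that fit (2.08, adjusted p = 0.00053), as were 83.9% of all features. The numbers do not pair the samples: 8 of 61 libraries correlated best with their own number, and 28 of the 30 libraries numbered up to 4 lay below the gap in Ddx3y against 3 of the 31 numbered above 4, so the number and Ddx3y overlap.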
